A study of Mus musculus with 12 samples.

Results

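The guanylate-binding proteins measured in mouse liver are the subject here. Members were taken by name, as Gbp2 to Gbp10, from a table of 11289 genes. Of these 9 names, 8 had a row and Gbp10 had none. The samples were whole livers of 12 C57BL/6J mice of 8 to 10 weeks, 4 in each of 3 groups. Control mice received no concanavalin A (Con A), a lectin from jack beans whose injection triggers T cell-driven hepatitis. Con A + PBS mice received 15 mg/kg Con A by the tail vein, followed by PBS after 30 min. Con A + hWJ-MSCs mice received the same Con A, followed after 30 min by 2000000 mesenchymal stem cells from human umbilical cord (Wharton's jelly), so that human cells were placed in mice. Per the labels, livers of the treated mice were collected 24 h later for poly(A) RNA sequencing. Age and cell number are those of the labels, and the study's methods give a lower value for each. In whole tissue, fewer cells of a type and less RNA per cell cannot be told apart.

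Guanylate-binding proteins are large GTPases that interferon-gamma induces strongly. They assemble on the membranes of intracellular pathogens and on the vacuoles that hold them, and they help to bring caspase-driven inflammasome responses to those sites. Some carry a CaaX motif for prenylation, which anchors them in membranes. In mice the genes lie in a cluster on chromosome 3 and a cluster on chromosome 5.

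The row identities had to be checked first, because 2 symbols did not match the identifiers beside them. On mm10, Gbp2 was at chr3:142620602-142638008, Gbp3 at chr3:142560052-142573202 and Gbp7 at chr3:142530338-142550083, all on the plus strand. The row named Gbp5 carried the identifiers and coordinates (chr3:142594847-142619179) of Gbp2b in the GENCODE annotation, and no row carried those of Gbp5 itself. It is called the Gbp5 (Gbp2b) row below. On chromosome 5, on the minus strand, Gbp4 was at chr5:105115767-105139586, Gbp9 at chr5:105078394-105110292 and Gbp8 at chr5:105014153-105139540. The row named Gbp6 held the transcript that GENCODE calls Gbp10, at chr5:105215699-105239533, and the gene identifier of Gm43302, a readthrough gene that spans Gbp10 and Gbp6. It is called the Gbp6 (Gbp10) row. Of the 150-base windows of that transcript, 63.2% also occurred in transcripts of Gm43302 and 44.6% in those of Gbp6, so part of its reads could come from any of these genes and its values are uncertain between them. For Gbp4 the share was 0.0456%, and for the other 6 rows it was 0%. The Gbp8 transcript ran across Gbp9 and Gbp4 and shared 61 bases of 1 exon with Gbp4. These 8 transcripts were spliced from 11 exons each, except Gbp8 with 10. Their coding sequences were 82.5% identical between Gbp2 and Gbp2b, 78.3% between Gbp3 and Gbp7 and 92.8% between Gbp4 and Gbp8. Between Gbp2 and the chromosome 5 members the identity was 62.2% to 64.6%.

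Because 3 of the chromosome 3 members had the largest rises with Con A, the 250 bases before their RefSeq starts (GRCm38.p6, plus strand) are shown, with motif matches in capitals. The motifs searched on both strands were the interferon-gamma activated site TTCNNNGAA, the core of the interferon-stimulated response element (GAAA, then any 2 bases, then GAAA), bound by IRF proteins, and the NF-kB consensus. Capitals mark a match of the first or the second motif, and the second reads TTTC, 2 bases, TTTC where it lies on the minus strand. The Gbp2 window is chr3:142620413-142620662, the Gbp2b window chr3:142594597-142594846, the Gbp3 window chr3:142559794-142560043 and the Gbp7 window chr3:142530086-142530335.
Gbp2: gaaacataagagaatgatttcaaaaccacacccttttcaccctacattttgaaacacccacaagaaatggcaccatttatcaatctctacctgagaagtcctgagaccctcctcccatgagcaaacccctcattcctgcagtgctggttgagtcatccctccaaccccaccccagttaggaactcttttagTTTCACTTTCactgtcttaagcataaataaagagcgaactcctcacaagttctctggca
Gbp2b: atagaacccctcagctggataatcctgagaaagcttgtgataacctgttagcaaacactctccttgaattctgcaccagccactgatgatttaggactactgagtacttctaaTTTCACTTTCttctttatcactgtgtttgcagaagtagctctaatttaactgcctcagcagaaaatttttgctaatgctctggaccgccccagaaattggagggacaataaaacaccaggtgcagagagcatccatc
Gbp3: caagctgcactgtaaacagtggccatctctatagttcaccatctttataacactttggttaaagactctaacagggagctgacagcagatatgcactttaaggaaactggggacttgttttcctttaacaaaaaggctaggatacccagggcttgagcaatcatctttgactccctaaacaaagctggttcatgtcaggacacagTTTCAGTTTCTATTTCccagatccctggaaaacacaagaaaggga
Gbp7: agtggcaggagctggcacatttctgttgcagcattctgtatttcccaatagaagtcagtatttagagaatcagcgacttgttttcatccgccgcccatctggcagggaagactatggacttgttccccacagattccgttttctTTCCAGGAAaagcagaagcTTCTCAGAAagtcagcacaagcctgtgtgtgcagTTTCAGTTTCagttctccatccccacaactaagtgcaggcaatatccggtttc

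All 4 windows held the response element core, which occurred in 2.98% of 32851 RefSeq windows of the same length. It lay at -59 to -50 in Gbp2, at -137 to -128 in Gbp2b and at -53 to -44 in Gbp7, counted from the base before the start. The transcript of the Gbp2 row began at 142620602, inside the Gbp2 window, so the end of that window and its match lie within this transcript. Gbp3 held 2 overlapping copies, at -45 to -36 and -39 to -30, and a second RefSeq start of Gbp3 held none. Of these 4 windows, only that of Gbp7 held activated sites, 2 of them, at -106 to -98 and -87 to -79. The window of Gbp5 itself, a neighbour in the cluster for which the table held no row, also held 2 activated sites, with 1 response element core and 1 NF-kB match. The activated site occurred in 7.02% of all windows, and the activated site and the response element core together in 0.332%. None of the 4 windows matched the NF-kB consensus, found in 7.25% of all windows. The chromosome 5 members Gbp4, Gbp6, Gbp8, Gbp9 and Gbp10 were not in the promoter table used. A match describes letters in the window and not a bound site.

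The values are whole numbers that the authors had already normalized between mice, so they are compared across mice as normalized values without a read depth. Each mouse summed to between 17649654 and 17657159, and every mouse had a median of 352. Because 82.1% of ranks held the same value in all mice, equal values recur between mice. Every row below was tested with limma on log2(value + 1) over all 12 mice, and p-values were adjusted with the Benjamini-Hochberg method over 11289 genes. A gene was called at an adjusted p below 0.05 with a fold change above 1.5.

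Most of the family was higher in the liver after Con A. Of 8 members, 7 were higher in Con A + PBS than in control livers and passed the limma test, against 19.5% of all genes called higher in that comparison, 19.2% called lower and 38.8% in either direction. In these 7 the lowest Con A + PBS mouse stood above the highest control mouse, a separation that 27.1% of all genes showed in this direction and 23.4% in the other. The median log2 difference of the 8 members was 2.96, and that of all genes was 0.045. Gbp8 was the member that did not pass, and the other 7 kept their calls in all 12 fits that each left out 1 mouse.

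Gbp2, which is recruited to vacuoles of intracellular parasites, changed most. Control mice 1 to 4 had normalized values of 105, 191, 169 and 205, mice given PBS after Con A 12219, 7132, 12219 and 10956, and mice given hWJ-MSCs 9867, 3862, 4562 and 2580. The treated groups stood far above control, and hWJ-MSC mouse 1 lay within the range of the Con A + PBS mice while the other 3 lay below it. The rise with Con A was 5.99 ± 0.35 (SE) on the log2 scale, 63.6-fold (limma adjusted p = 1.6e-07), and ranked 29 from the highest of 11289 genes.

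Gbp3 and Gbp7, neighbours on chromosome 3 that also take part in defence against intracellular pathogens, had near-equal control levels. Gbp3 had values of 289, 322, 342 and 299 in control mice, 4636, 2925, 4354 and 3112 with PBS after Con A, and 2925, 1710, 2298 and 1720 with hWJ-MSCs. Gbp7 had 287, 332, 382 and 352 in control mice, 5040, 2266, 4195 and 3126 with PBS after Con A, and 1794, 985, 976 and 1352 with hWJ-MSCs. The treated groups met at 2925 for Gbp3, and for Gbp7 all hWJ-MSC mice lay below all Con A + PBS mice. The rise with Con A was 3.56 ± 0.19 on the log2 scale for Gbp3 (11.8-fold, limma adjusted p = 9.2e-08). For Gbp7 it was 3.37 ± 0.25 (10.4-fold, limma adjusted p = 7.6e-07).

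The Gbp5 (Gbp2b) row, for a prenylated member, was the most scattered of the chromosome 3 rows in control livers. It had values of 67, 198, 43 and 95 in control mice, 517, 326, 354 and 436 with PBS after Con A, and 272, 182, 202 and 129 with hWJ-MSCs. Every Con A + PBS mouse was above every mouse of the other groups, while control and hWJ-MSC mice overlapped. Its rise with Con A was 2.21 ± 0.38 on the log2 scale (4.63-fold, limma adjusted p = 0.000359).

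**Figure D1:**
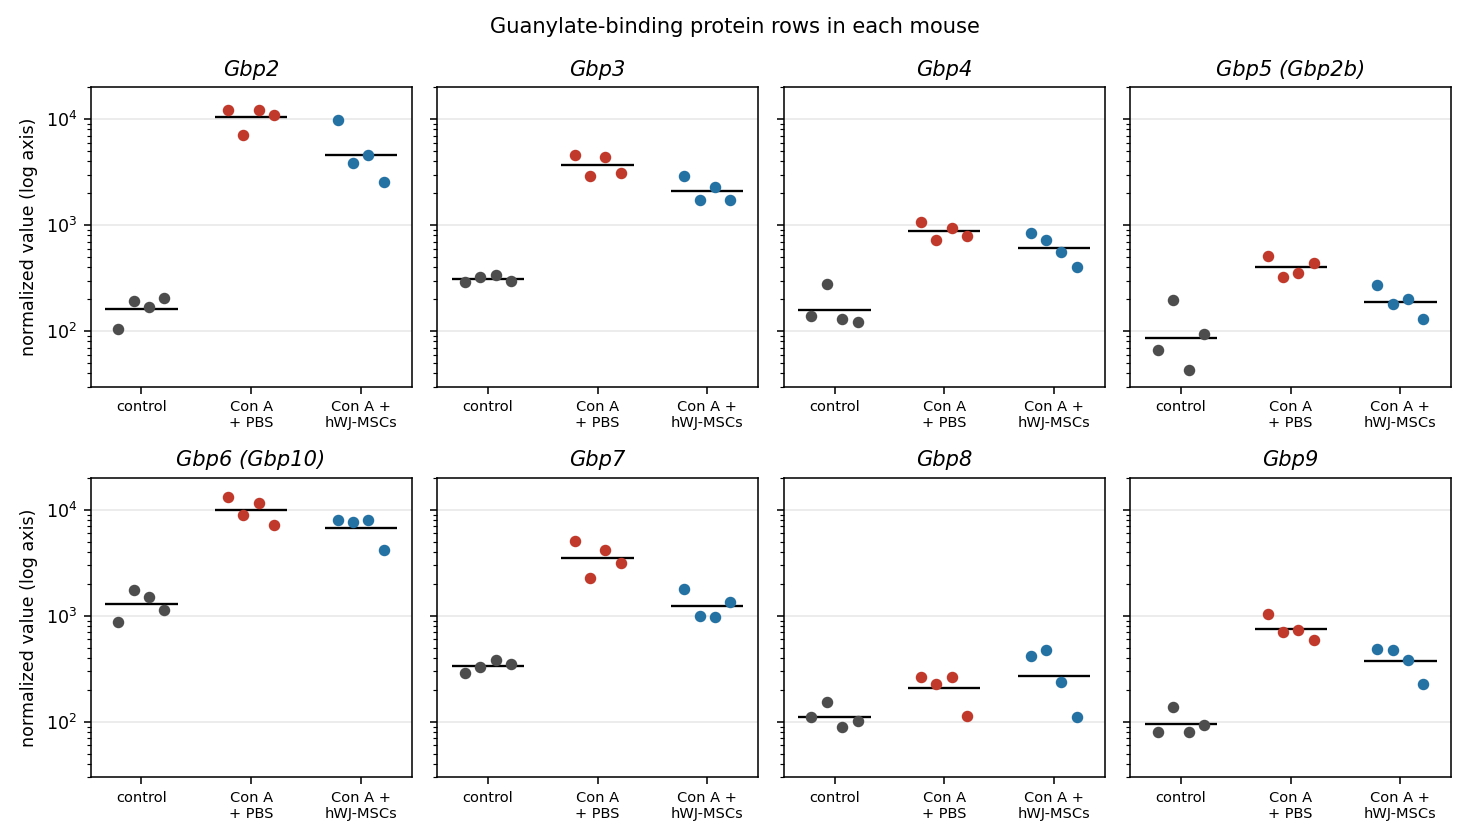
Normalized value (log axis) of each of the 8 guanylate-binding protein rows in each of 12 mice; a point is 1 mouse, and a line is the mean of the group on the log2 scale. Control mice sat below Con A + PBS mice in every panel but Gbp8, and Gbp7 was one of 3 rows in which all hWJ-MSC mice lay below all Con A + PBS mice.

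On chromosome 5, the Gbp4, Gbp6 (Gbp10) and Gbp9 rows rose with Con A and Gbp8 did not pass the test. Gbp9 had values of 80, 138, 80 and 93 in control mice, 1032, 699, 732 and 588 with PBS after Con A, and 488, 472, 386 and 228 with hWJ-MSCs. The 3 groups of mice did not overlap for Gbp9, and control was lowest. Its rise with Con A was 2.96 ± 0.26 on the log2 scale (7.77-fold, limma adjusted p = 2.5e-06). For the Gbp6 (Gbp10) row values ran from 878 to 1764 in control, from 7132 to 13230 with PBS after Con A, and from 4195 to 7954 with hWJ-MSCs. It also rose 7.77-fold (limma adjusted p = 3.7e-06). Values for Gbp4 ran from 123 to 279 in control, from 727 to 1082 with PBS after Con A, and from 404 to 840 with hWJ-MSCs. The rise was 2.46 ± 0.27 on the log2 scale (5.5-fold, limma adjusted p = 1.6e-05), and both rows had treated groups that overlapped each other.

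Gbp8 stood apart from its neighbours. Its values were 112, 154, 89 and 102 in control mice, 262, 228, 266 and 114 with PBS after Con A, and 417, 476, 240 and 110 with hWJ-MSCs. Mouse 4 of each Con A group lay inside the control range, and all 3 groups overlapped. The difference between Con A + PBS and control was 0.88 on the log2 scale, with a 95% interval from -0.01 to 1.77 (limma adjusted p = 0.0858). It passed the test in 2 of 12 fits that each left out 1 mouse, those without Con A + PBS mouse 4 or without hWJ-MSC mouse 4, and also with only the 8 mice compared (limma adjusted p = 0.0266).

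Mice given hWJ-MSCs were compared with Con A + PBS mice to ask whether the family differed after the cells were given. In this comparison 4 of 8 members fell, Gbp2, Gbp3, Gbp7 and Gbp9, against 4.38% of all genes called lower, and no member was called higher, against 4.2% of all genes (8.58% in either direction). The point estimate was below 0 for 7 of 8, the exception being Gbp8. The median log2 difference was -0.89, where that of all genes was 0.00024.

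Gbp7 had the largest fall, by 1.5 ± 0.25 (SE) on the log2 scale, 2.83-fold (limma adjusted p = 0.0174). Gbp2 fell by 1.18 ± 0.35 (2.26-fold, limma adjusted p = 0.0468), Gbp9 by 0.98 ± 0.26 (1.98-fold, limma adjusted p = 0.0332) and Gbp3 by 0.80 ± 0.19 (1.75-fold, limma adjusted p = 0.0270). The Gbp5 (Gbp2b) row differed by -1.08 on the log2 scale, with a 95% interval from -1.89 to -0.27, and its adjusted p of 0.0688 (limma) was above the threshold although its groups did not overlap. Non-overlapping groups, with hWJ-MSC mice lower, were found in 3 members, Gbp5 (Gbp2b), Gbp7 and Gbp9, and in 11.6% of all genes (11.9% with hWJ-MSC mice higher). The intervals of the remaining chromosome 5 rows included 0. They ran from -1.11 to 0.06 for Gbp4, from -1.15 to 0.02 for Gbp6 (Gbp10) and from -0.51 to 1.27 for Gbp8.

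Whether these falls were called depended on single mice, while their estimates stayed below 0 in all 12 fits that left out 1 mouse. The estimates ran from -1.709 to -1.325 for Gbp7 and from -1.542 to -0.897 for Gbp2. They ran from -1.106 to -0.741 for Gbp9 and from -0.961 to -0.693 for Gbp3. Leaving out 1 mouse at a time gave between 0 and 4 members called. No member was called without Con A + PBS mouse 1, without hWJ-MSC mouse 2 or without hWJ-MSC mouse 3, fits in which 7, 18 and 7 of 11289 genes were called in all. Without Con A + PBS mouse 3 only Gbp7 was called. In those 4 fits 5 members had an unadjusted limma p below 0.05 with a fold change above 1.5, and 7 had estimates below 0. Gbp7 was called in 9 of the 12 fits, Gbp3 and Gbp9 in 8 each, and Gbp2 in 3.

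**Figure D2:**
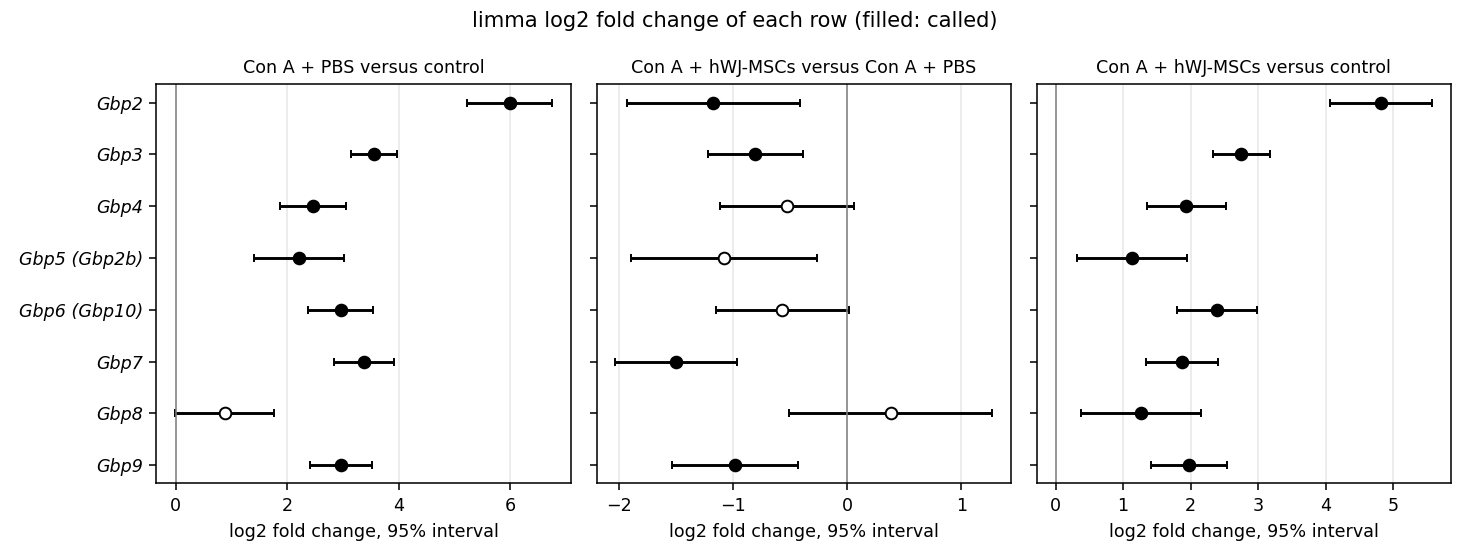
Log2 fold change of each of the 8 rows from limma, with its 95% confidence interval, in the 3 comparisons of the groups; the vertical line at 0 is no difference. Con A + PBS against control ran from 0.88 for Gbp8 to 5.99 for Gbp2, and hWJ-MSCs against Con A + PBS ran from -1.5 for Gbp7 to 0.38 for Gbp8.

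The family stayed above control after hWJ-MSCs. Against control livers, all 8 members were higher in Con A + hWJ-MSCs mice, where 13.6% of all genes were called higher, 13.1% lower and 26.7% in either direction. In 6 members the groups did not overlap, as in 20.6% of all genes in that direction and 17.3% in the other. The median log2 difference was 1.96, against 0.041 for all genes. Gbp2 was 28.2-fold above control (limma adjusted p = 1.3e-06), Gbp3 was 6.73-fold and the Gbp6 (Gbp10) row 5.24-fold above. Gbp9, Gbp4 and Gbp7 were higher by 3.93-fold, 3.82-fold and 3.67-fold. Weakest were the Gbp8 row, at 2.39-fold (limma adjusted p = 0.0269), and the Gbp5 (Gbp2b) row, at 2.19-fold (limma adjusted p = 0.0292), whose groups overlapped those of control. Each of these 2 was called in 7 of 12 fits that left out 1 mouse, and between 6 and 8 members were called over those fits. Both lost the call without control mouse 1, 3 or 4 and without hWJ-MSC mouse 1. Without hWJ-MSC mouse 2 Gbp8 also lost it, and without hWJ-MSC mouse 3 the Gbp5 (Gbp2b) row did. This comparison and the one of Con A + PBS with control share their control mice.

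Levels between genes were compared per kilobase of transcript. In control livers the Gbp6 (Gbp10) row was highest at 375 ± 111 normalized units per kb (SD, n = 4), above Gbp7 at 135.5 ± 16 and Gbp3 at 119 ± 9.06. Gbp2 followed at 66.6 ± 17.6, then Gbp8 at 46.5 ± 11.4, Gbp4 at 37.1 ± 16.3, the Gbp5 (Gbp2b) row at 35.7 ± 24.2 and Gbp9 at 22.3 ± 6.28. Neighbours in that order from Gbp7 to Gbp3 and from Gbp2 down to Gbp9 differed by less than the sum of their SDs. After Con A + PBS Gbp2 came first at 4226 ± 957 per kb, ahead of Gbp6 (Gbp10) at 2896 ± 771, though by less than the sum of their SDs. Gbp7 and Gbp3 stood at 1464 ± 486 and 1429 ± 328, not apart from each other. The lowest rows were Gbp4 at 195 ± 34.9, Gbp9 at 174 ± 43.3, Gbp5 (Gbp2b) at 145 ± 30.5 and Gbp8 at 88.5 ± 28.9. In Con A + hWJ-MSCs livers Gbp2 at 2074 ± 1275 and Gbp6 (Gbp10) at 1964 ± 519 could not be ordered.

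Whether members moved by the same amount was tested as the ratio of each to Gbp2 within a mouse, for 7 ratios in each of 3 comparisons (21 exact permutation tests, two-sided and not adjusted). With 4 mice against 4 the smallest possible p was 0.0286. Between control and Con A + PBS all 7 ratios reached that p, each with Gbp2 rising more. Gbp2 was chosen as the common denominator with its rise, the largest of the family, already known, so the sign of these 7 differences follows from that choice, and the 7 tests share the Gbp2 values. On the log2 scale the ratio to Gbp2 differed by -2.44 for Gbp3, -2.62 for Gbp7, -3.03 for both Gbp6 (Gbp10) and Gbp9, -3.53 for Gbp4, -3.78 for Gbp5 (Gbp2b) and -5.11 for Gbp8. Between the PBS and hWJ-MSC mice, with all mice included, only the Gbp8 ratio differed, by 1.56 (exact permutation p = 0.0286). Leaving out hWJ-MSC mouse 2 brought it to 1.2 (exact permutation p = 0.0571). The Gbp7 ratio was -0.33 (exact permutation p = 0.4) and the Gbp3 ratio 0.37 (exact permutation p = 0.229). With all mice included, these did not resolve a different fall of either gene from that of Gbp2. Without hWJ-MSC mouse 1 the groups no longer overlapped in the Gbp3 ratio. The remaining ratios differed by 0.10 for Gbp5 (Gbp2b), 0.19 for Gbp9, 0.61 for Gbp6 (Gbp10) and 0.65 for Gbp4 (exact permutation p = 0.6, 0.6, 0.143 and 0.0857). Between control and hWJ-MSC mice all 7 ratios also reached the smallest p, with differences from -2.07 for Gbp3 to -3.68 for Gbp5 (Gbp2b). Gbp2 was the member furthest above control here too, so the sign of these differences also follows from its choice as denominator. The control mice are the same as in the first comparison.

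**Figure D3:**
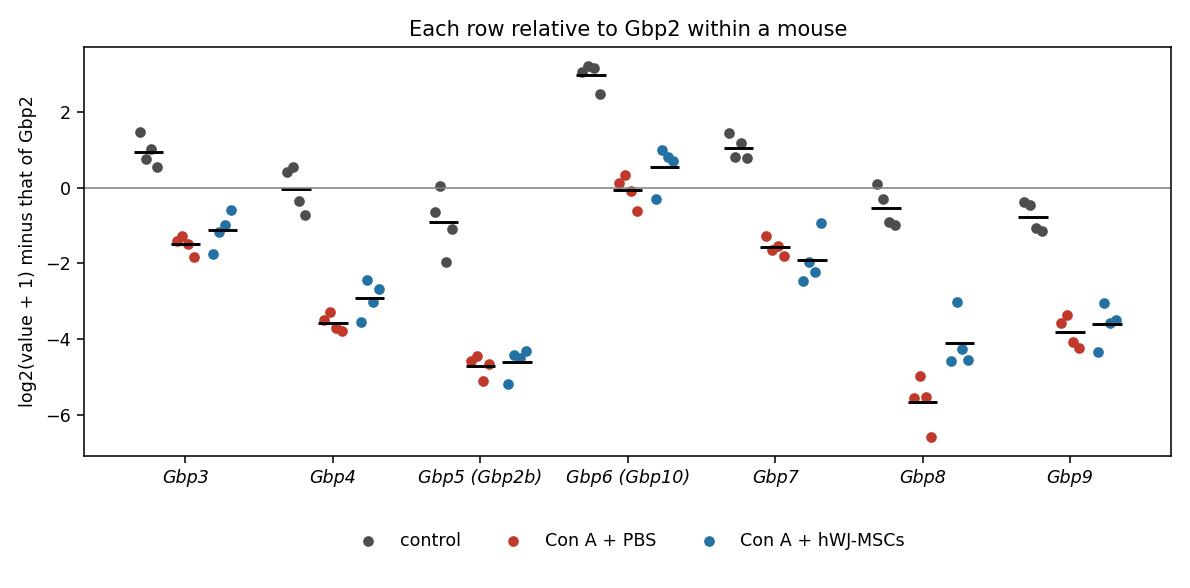
Log2 of the ratio of each of 7 rows to Gbp2 within a mouse, by group; a point is 1 mouse and a line is the group's mean. All 7 ratios were lower in Con A + PBS than in control livers, and with all mice included only Gbp8 differed from Con A + PBS after hWJ-MSCs.

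The order of the mice within a group was shared by many of the rows. Con A + PBS mouse 1 was highest in 7 of 8 rows, counting ties, and hWJ-MSC mouse 1 was also highest in 7. Among hWJ-MSC mice, mouse 4 was lowest in 6 rows. In control livers mouse 2 was highest in 5 rows and mouse 1 lowest in 5. Over the 12 mice, the correlation of a row with the mean of the other members was 0.991 for Gbp9, 0.988 for Gbp4, 0.981 for Gbp6 (Gbp10), 0.972 for Gbp2, 0.968 for Gbp3 and 0.915 for Gbp7. It was 0.879 for Gbp5 (Gbp2b) and 0.662 for Gbp8. These Pearson values are descriptions over mice that share 3 treatment levels.

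The non-members whose pattern over the 12 mice was most like the mean of the standardized members were Igtp, at a Pearson r of 0.983, Oasl2 at 0.982, Gm12185 and Gvin1 at 0.981, and Cd47 and Oas3 at 0.98. Igtp is an immunity-related GTPase, Oasl2 and Oas3 belong to the oligoadenylate synthetase family, Gvin1 is a very large interferon-inducible GTPase, and Cd47 is a surface protein that limits phagocytosis. Their log2 differences between Con A + PBS and control ran from 1.22 for Cd47 to 4.22 for Gm12185. The levels of Igtp were 1285 ± 438 in control, 12810 ± 3805 with PBS after Con A, and 8760 ± 1593 with hWJ-MSCs after Con A (SD, n = 4).

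A list of 23 genes held interferon receptors, their kinases and transcription factors, the inhibitors of that signalling, and Tlr4 with the Toll-like receptor adaptors Myd88 and Ticam1. Of these, 20 were in the table (Ifng, Ciita and Tlr4 had no row). With Con A + PBS 13 rose and none fell, where 19.5% of all genes rose and 19.2% fell, with a median log2 difference of 0.87. Socs1, the feedback inhibitor of JAK kinases, had a mean of 12.2 ± 5.12 (SD, n = 4) in control mice, 568 ± 160 with PBS after Con A, and 209 ± 60.8 with hWJ-MSCs. It rose by 5.46 on the log2 scale with Con A (limma adjusted p = 1.0e-07) and fell by 1.44 with hWJ-MSCs (limma adjusted p = 0.0224). Socs3, an inhibitor of cytokine signalling, rose by 2.15 (limma adjusted p = 0.000278) and differed by -0.49 with hWJ-MSCs (limma adjusted p = 0.345). With hWJ-MSCs against Con A + PBS none of the 20 rose and 2 fell, Socs1 and the phosphatase gene Ptpn11, with a median of -0.35, where 4.38% of all genes fell. As for the members, calls in this comparison can be lost with 1 mouse, since as few as 7 genes of the whole table were called with 1 left out.

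The immunity-related GTPases work beside the guanylate-binding proteins on pathogen vacuoles. Of 17 listed names, 9 had a row, and all 9 rose with Con A + PBS, where 19.5% of all genes rose. The median log2 difference was 2.03. Tgtp1 had means of 482 ± 289 in control, 15500 ± 7092 with PBS after Con A, and 8996 ± 866 with hWJ-MSCs. Tgtp1 and Tgtp2 rose by 5.12 and 3.89 on the log2 scale and Igtp by 3.33. With hWJ-MSCs 3 of the 9 fell and none rose (median -0.57), where 4.38% of all genes fell. Their log2 differences were -1.63 for F830016B08Rik, -0.78 for Gm4951 and -0.66 for 9930111J21Rik2. For Tgtp1, Tgtp2 and Igtp the differences were -0.69 (limma adjusted p = 0.222), -0.01 (limma adjusted p = 0.995) and -0.52 (limma adjusted p = 0.159). Tgtp1 and Tgtp2 are near-identical copies whose reads the counting could split.

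In the list of inflammasome and pyroptosis genes, 10 of 14 had a row. With Con A + PBS 7 rose and 2 fell, with a median log2 difference of 0.925, and with hWJ-MSCs 1 rose and 2 fell (median -0.008). The share that fell with Con A was near the 19.2% of all genes, while 19.5% of all genes rose, and with hWJ-MSCs 4.2% of all genes rose and 4.38% fell. Il1rn, the interleukin-1 receptor antagonist, had means of 56.8 ± 11.7, 2712 ± 702 and 1166 ± 241 in control mice, with PBS after Con A, and with hWJ-MSCs. It rose by 5.54 on the log2 scale and then fell by 1.2 (limma adjusted p = 0.0188). Zbp1, a nucleic acid sensor, rose by 3.61 and fell by 0.76 with hWJ-MSCs (limma adjusted p = 0.0371). Il18, a cytokine processed by inflammasomes, moved the other way, from 147 ± 36.9 in control to 27.5 ± 6.81 with Con A + PBS and 52.0 ± 11.2 with hWJ-MSCs. It fell by 2.38 (limma adjusted p = 1.1e-05) and rose by 0.90 (limma adjusted p = 0.0384). Ninj1, which ruptures the membrane of dying cells, was the other gene to fall with Con A, at -0.75.

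The autophagy conjugation and ubiquitin genes, which help to place guanylate-binding proteins on vacuoles or mark those vacuoles, all had a row, 21 of 21. With Con A + PBS 8 rose and 3 fell (Atg3 at -1.01, Gabarapl1 at -0.92 and Calcoco1 at -1.3), with a median log2 difference of 0.44. With hWJ-MSCs 1 rose, Atg3 by 0.62, and 2 fell (median 0.03). With Con A 19.5% of all genes rose and 19.2% fell, and with hWJ-MSCs 4.2% of all genes rose and 4.38% fell. Isg15, a ubiquitin-like modifier, rose by 4.58 and fell by 0.87 with hWJ-MSCs (limma adjusted p = 0.0488). Rnf213, a ubiquitin ligase that coats intracellular bacteria, rose by 2.79 and fell by 1.03 (limma adjusted p = 0.0174). Lgals3, a galectin that binds damaged vacuoles, rose by 2.27 and differed by -0.36 with hWJ-MSCs (limma adjusted p = 0.477). Of the 9 prenylation genes only Zmpste24, a CaaX protease, rose with Con A + PBS, by 0.71 (limma adjusted p = 0.000478), a smaller share than the 19.5% of all genes, and none of the 9 was called with hWJ-MSCs.

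**Figure D4:**
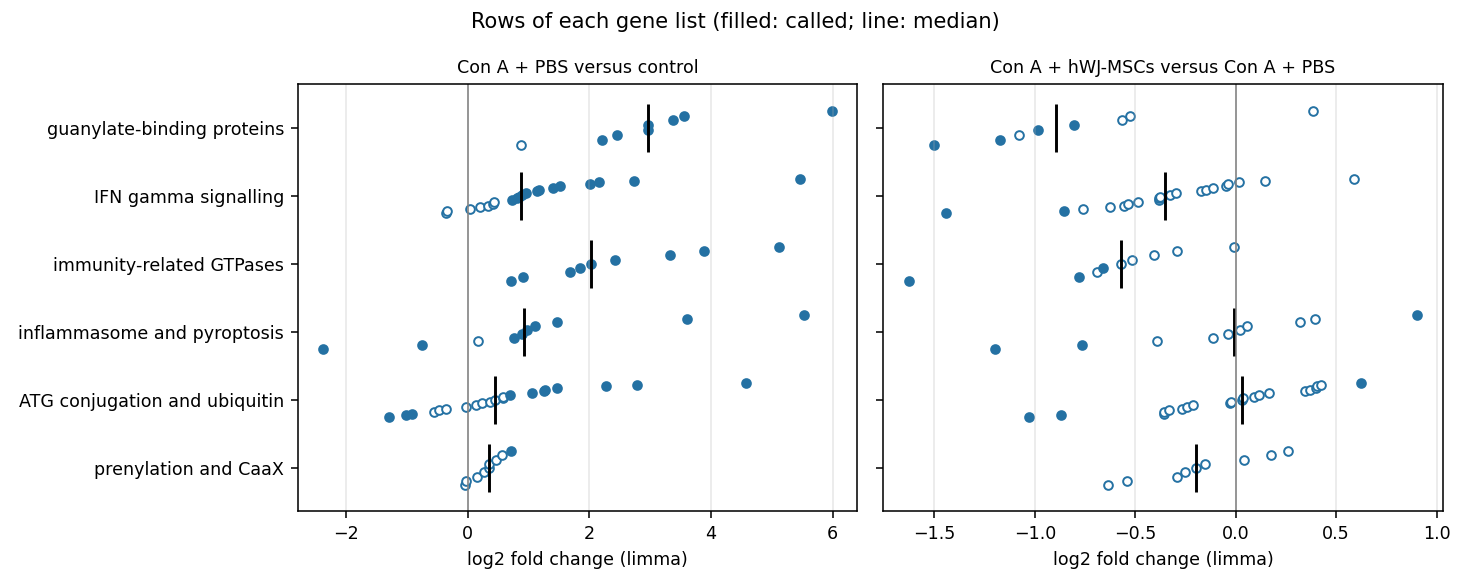
Log2 fold change of each gene of the family and of the 5 pathway lists, for Con A + PBS against control and for Con A + hWJ-MSCs against Con A + PBS; a point is 1 gene and a line is the median of the list. Medians with Con A ran from 0.35 for the prenylation genes to 2.96 for the guanylate-binding proteins.

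Many markers of liver cell types were called with Con A as well, in a comparison where 19.5% of all genes rose, 19.2% fell and 38.8% were called in either direction. Hepatocyte markers were the largest by summed value, 1519731 to 1681816 in control and 1106583 to 1157313 in Con A + PBS mice, and 5 of 12 fell (Ttr, Apoa1, Asgr1, Cyp2e1 and Serpina1c) while Fgb rose. This sum is bounded by a ceiling, as Alb stood at 341028, the highest value of the table, in all 12 mice, and Fgb at that value in all mice given Con A. Summed Kupffer cell and macrophage markers went from between 6255 and 9784 in control to between 1875 and 2808 in Con A + PBS mice, with 10 of 11 called lower and Cd68 higher. Sinusoidal endothelial markers went from between 5048 and 7180 to between 2164 and 3301, with 9 of 12 called lower and Lyve1 higher. Monocyte and neutrophil markers went up from between 1152 and 1561 to between 2276 and 3457, with 10 of 12 called higher and Lyz2 lower. Of 14 T and NK cell markers listed, 6 had a row. Their sum went up from between 71 and 147 to between 692 and 1323, with 6 of 6 called higher. None of these 6 reached 64 in a control mouse, a value that every gene of the table reached in at least 2 mice. They had a row only through mice given Con A, so a rise in them follows from having a row. The same holds for the monocyte and neutrophil markers Ly6c2, S100a8, S100a9, Cxcr2, Retnlg and Mmp8. Defining T cell genes such as Cd3e, Cd4 and Trac had no row. In Con A + hWJ-MSCs mice each of these sums overlapped that of Con A + PBS mice. The markers called between these groups were Il2rb, Lyve1 and Cdh5, which were lower, and Stab2, which was higher. In that comparison 4.38% of all genes were called lower and 4.2% higher. The part of these cells in the changes of the guanylate-binding proteins was not tested.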

How the data were processed

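Livers of 12 mice in 3 groups of 4 were sequenced as paired-end reads. The submitters' processing notes name Bowtie2 2.2.1, RSEM 1.2.18 and mm10. The deposited values are a whole-number score that the authors had already normalized between mice and not raw counts, since 82.1% of ranks hold identical values in all mice, so depth is unknown and no count test was used. Every gene reached 64 or more in at least 2 mice, so a gene below that in all control mice had a row only through mice given Con A. Values were transformed as log2(value + 1) and fitted with limma 3.58.1 (R 4.3.3, eBayes with trend) over all 12 mice. No more than 4 mice a group limits the precision. Ratios were compared by exact permutation in Python 3.11.15. Groups came from the labels, which do not say that mice were pooled. The members and lists were chosen with earlier results of these data known. All members are named, along with the 3 called genes of largest change with Con A in each pathway list and the 6 genes most like the family. Genes named to account for a count of 5 or fewer were chosen after their values were seen. The values of 1 gene that this rule names are not reported here. Alternatives were pseudocount, filter, scaling, threshold, fit and single-mouse omission. Replicate numbers are shared between groups, but same-numbered mice are different animals, and their deviations correlated by only -0.118 to 0.375, so they were not paired. Promoters came from RefSeq (GRCm38.p6) and transcripts from GENCODE M21.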

Additional observations from a re-analysis of the deposited data

Results flagged for a closer look

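Among 24 combinations of a row and a group, 2 held a mouse whose gap to its nearest neighbour was large for the group's range, and chance flags about 1 in 20 such groups. For Gbp4, control mouse 2 stood at 279 while the other control mice lay between 123 and 140, a gap of 0.842 of the range on the log2(value + 1) scale. For the Gbp6 (Gbp10) row, hWJ-MSC mouse 4 stood at 4195 while the others lay between 7616 and 7954, a gap of 0.935 of the range on the same log2 scale.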

How the results depend on the processing

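Called members numbered 7 with Con A + PBS against control, 4 with hWJ-MSCs against Con A + PBS and 8 with hWJ-MSCs against control. Over fits that left out 1 mouse these ranged from 7 to 8, from 0 to 4 and from 6 to 8. Over the whole table the middle comparison called 969 genes, and from 7 to 1575 with 1 mouse left out. An unadjusted p gave 1697 genes and 5 members, adding Gbp5 (Gbp2b). No trend gave 3 members, without Gbp2. Only the 8 mice compared gave 3 members, Gbp5 (Gbp2b), Gbp7 and Gbp9. A pseudocount of 10, a mean of at least 100, median centring, quantile normalization and no fold threshold each gave 4, the last with 1485 genes. With the replicate number as a block, 8, 3 and 8 members were called in the 3 comparisons, Gbp8 being added in the first (limma adjusted p = 0.0219) and Gbp2 lost in the second (limma adjusted p = 0.0534). The cause of these changes was not tested.

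Ratios to Gbp2 that differed numbered 7, 1 and 7. Leaving out 1 mouse gave 7 throughout in the first and the last comparison and from 0 to 3 in the middle one. With same-numbered mice paired as a block, 0, 0 and 0 differed, since 4 pairs cannot give a p below 0.125. The ratio of Gbp5 (Gbp2b) to Gbp2 with hWJ-MSCs turned from 0.10 to -0.043 without Con A + PBS mouse 3 (exact permutation p = 0.971), over a range from -0.043 to 0.29 with 1 mouse left out. Depth is unknown, so what it limits could not be measured.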
